A study of Tursiops truncatus with 31 samples.

Results

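Summer and spring blood of the same bottlenose dolphins was compared by RNA-seq, with each animal as its own reference. The libraries were chosen by the month in their label: 8 drawn in July, August or September (summer) and 10 drawn in March, April or May (spring), so that 18 of the 31 libraries of the study were compared. The other 13 libraries, from December, February, June, October and November, entered only an alternative fit over all 31 libraries. The 4 animals were healthy, lived under human care and were bled in the morning after fasting. Hua, a male aged 5 years, gave 2 summer and 3 spring libraries, and Kai, a male aged 17 years, gave 2 and 2. Keo, a female aged 12 years, gave 1 and 3, and Pele, a female aged 28 years, gave 3 and 2. All libraries were made from whole blood RNA depleted of globin transcripts by RNase H and oligonucleotides against dolphin globins. Replicates are repeated draws from 4 animals, so the p-values describe these animals, and the single summer library of Keo carries that animal's whole seasonal difference.

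Blood RNA comes from several cell types. Circulating young red cells contribute globin and haem synthesis transcripts, and leukocytes contribute receptors, antimicrobial proteins and inducible defence genes. A seasonal difference in blood can therefore follow the number of cells of a type or the RNA in each of them, which cannot be told apart in bulk libraries. Type I interferons bind a receptor on nearly all cells and raise antiviral genes such as the OAS and IFIT families. Heat shock proteins refold damaged proteins, and clock genes set daily rhythms that in some mammals also follow day length.

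Expression is given as the deposited FPKM, fragments mapped to a gene relative to its transcript length and to the mapped fragments of the library. Differences are on the log2(FPKM + 1) scale, on which a change at a low level appears smaller than it is. The defining markers of blood were present in all 18 libraries: HBB lay between 44740 and 294873 FPKM, ALAS2 between 20889 and 48128, the neutrophil gene S100A8 between 352 and 3342 and the B cell gene CD79A between 24.4 and 193. Of 31 listed genes of skin, connective tissue and endothelium, which the needle could have carried along, 6 were measured, with a summed level of 125 to 328 FPKM in summer and 82.0 to 355 in spring. Between 13 and 1148 of the 9610 genes were listed at 0 in a library. The 3 libraries with over 1000 such genes (Hua March, Hua May and Kai April) were all from spring males. The July and August libraries of Pele stood apart in interferon genes, and the counts over all genes, the lists and the leading genes are also given without them. The methods state a target depth and the values used are not read counts, so no counting error was computed.

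The composition of the libraries was compared between the seasons first. Globin genes (6 named and a beta globin gene without a symbol) took 11.3% to 40.2% of the summed FPKM in summer, with a median of 29.0%, and 9.34% to 42.4% in spring, with a median of 27.7%. The mean within-animal difference, summer minus spring, was −1.60 percentage points (exact permutation within animals, p = 0.785, adjusted p = 0.785 over 2 comparisons). The 100 most abundant genes took 67.5% to 84.4% in summer (median 71.8%) and 67.4% to 82.3% in spring (median 77.5%), a difference of −3.25 points (exact permutation within animals, p = 0.193, adjusted p = 0.387). Both differences were smaller than the spread between libraries of a season.

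No gene passed an adjusted p of 0.05 between summer and spring in limma (0 of 9610, 0%). At an unadjusted p under 0.05 there were 963 genes (10.0%) with higher and 71 (0.739%) with lower values in summer. The smallest adjusted p was 0.0813. This lean toward summer came with a shift of the whole table: the median difference over all genes was 0.21 as deposited and 0.03 after median-ratio scaling, which sets the typical gene of each library level. After scaling, 396 genes (4.12%) were higher and 490 (5.10%) lower at an unadjusted p under 0.05, and again 0 passed after adjustment (smallest adjusted p = 0.289). The direction of a gene near the shift therefore depends on the scaling, and both values are given below for some genes and lists. Where only the deposited or only the scaled value is given, the other can differ. Without the July and August libraries of Pele the counts were 0 after adjustment, with 974 (10.1%) higher and 41 (0.427%) lower as deposited, and 360 (3.75%) higher and 425 (4.42%) lower after scaling. The count of higher genes fell to 515 without the July library of Hua, to 613 without the August library of Keo and to 593 without the 3 spring libraries with over 1000 genes at 0. It rose to 1320 without the August library of Hua and to 1173 without the April library of Hua.

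**Figure D1:**
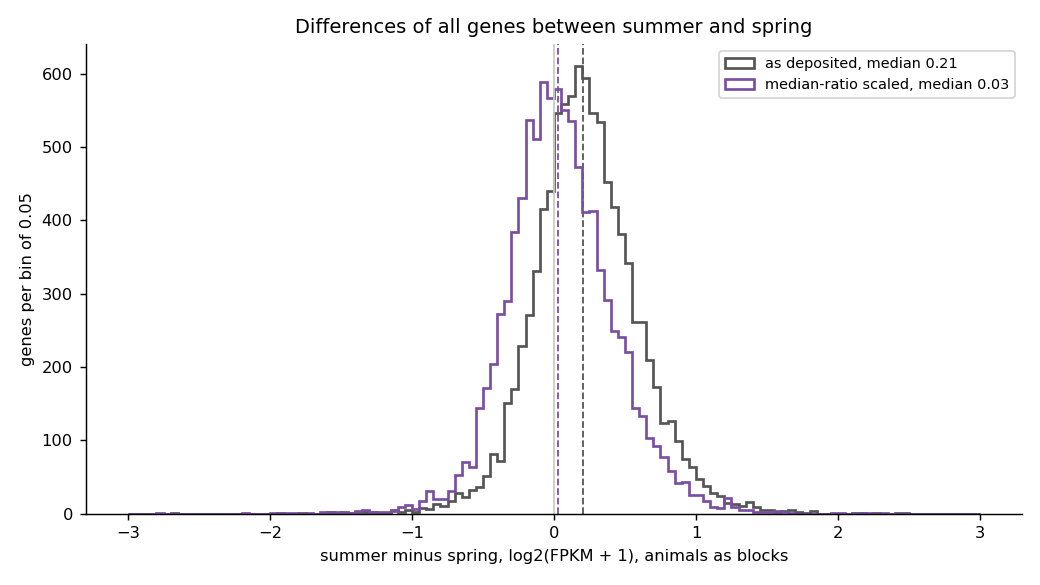
Distribution of the summer minus spring difference of 9610 genes, in log2(FPKM + 1) with animals as blocks (x axis), as genes per bin of 0.05 (y axis). The deposited values are centred at 0.21 and the scaled values at 0.03 (dashed lines), so the bulk of the shift toward summer is removed by scaling.

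Among the genes with the smallest p, those higher in summer were mostly of low level and those lower in summer included abundant genes of red cells. PHF6, a PHD finger protein of chromatin, had 8.46 and 4.79 FPKM in the summer libraries of Hua, 3.71 and 3.38 in those of Kai, 5.82 in that of Keo, and 4.32, 4.32 and 3.28 in those of Pele. In spring it had 0, 1.40 and 2.56 in Hua, 0 and 0.35 in Kai, 1.83, 2.15 and 1.34 in Keo, and 1.52 and 0.10 in Pele. Each summer library lay above each spring library, and PHF6 was the single gene of 9610 (0.0104%) whose seasons did not overlap in either direction. The difference was 1.70 (SE 0.29, p = 8.46e-06, adjusted p = 0.0813), or 1.59 after scaling and 1.68 without the July and August libraries of Pele. Both spring zeros lie in libraries with over 1000 genes at 0, and without the 3 such libraries the difference was 1.56 (adjusted p = 0.259). In the 8 winter libraries (December and February) PHF6 ranged from 0 to 9.24 FPKM with a median of 2.78.

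HAX1, a mitochondrial protein that protects human neutrophils from cell death, ran from 15.0 to 64.4 FPKM in summer (median 36.5) and from 6.03 to 28.9 in spring (median 17.1). Of the 8 summer libraries 7 lay above every spring library, the exception being Kai in July. The difference was 1.203 (SE 0.22, adjusted p = 0.128), 1.00 after scaling, with all 4 animals higher in summer on both scales, and 1.17 without the July and August libraries of Pele. BCL2L11, which encodes the pro-apoptotic protein BIM, had the widest difference of the 10 genes with the smallest p in this direction (2.13, SE 0.45, adjusted p = 0.196, and 1.81 without those libraries). It was listed at 0 in 6 of 10 spring libraries, with a highest spring value of 2.10 FPKM, and it lay between 2.13 and 15.4 in the summer libraries other than Hua in August, where it was at 0.

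DUSP7, a phosphatase of MAP kinases, lay at 3.70 to 14.2 FPKM in summer and 0 to 5.98 in spring. SUV39H1, a histone methyltransferase of heterochromatin, lay at 1.63 to 8.15 and 0 to 2.96. All summer libraries exceeded the spring median of each gene, and the seasons overlapped. Their differences were 1.67 and 1.28 (adjusted p = 0.185 and 0.196). The others of the 10 were CD3D (described with the T cell genes), PIAS1, a SUMO ligase that restrains STAT signalling (1.203), C15orf61 (1.71), the mitochondrial exonuclease MGME1 (1.55) and the gap junction gene GJA1 (1.10), with adjusted p from 0.198 to 0.241. Having been chosen by the within-animal p, all 10 were higher in summer in each of the 4 animals as deposited.

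The 10 genes with the smallest p in the other direction were lower in summer in each of the 4 animals on both scales, which their choice by the within-animal p favours. Over all 9610 genes, 846 were lower and 883 higher in each of the 4 animals after scaling. FN3K, a kinase that removes sugar adducts from proteins such as haemoglobin, ran from 62.8 to 124 FPKM in summer (median 96.8) and from 101 to 205 in spring (median 152). Every summer library lay below the spring median and 5 of 8 lay below every spring library. The difference was −0.60 (SE 0.16, adjusted p = 0.342), −0.81 after scaling and −0.55 without the July and August libraries of Pele.

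HAVCR2, an inhibitory receptor of T cells and myeloid cells, was listed at 0 in 5 summer libraries and at 0.38, 0.74 and 2.43 FPKM in Kai September, Hua July and Pele September. In spring it ran from 0.48 to 9.02 (median 1.99) and was at 0 in none of the 10 libraries. The difference was −1.54 (SE 0.36, adjusted p = 0.241), −1.36 without the July and August libraries of Pele and −1.23 without the spring libraries with over 1000 genes at 0. EIF1, a translation initiation factor, ran from 1569 to 2803 FPKM in summer and 1916 to 3509 in spring (−0.45, adjusted p = 0.346). GMPR, the GMP reductase of purine recycling, ran from 16.1 to 61.0 and from 21.5 to 93.7 (−0.83, adjusted p = 0.346). For both, 7 of 8 summer libraries were below the spring median. The others were PRDX2 (given with the red cell genes), SSBP2, a single-stranded DNA-binding protein (−1.19), FT (−0.46), C10orf11 (−1.48), CIB2 (−1.26) and LRRC28 (−1.204), each with an adjusted p of 0.346.

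**Figure D2:**
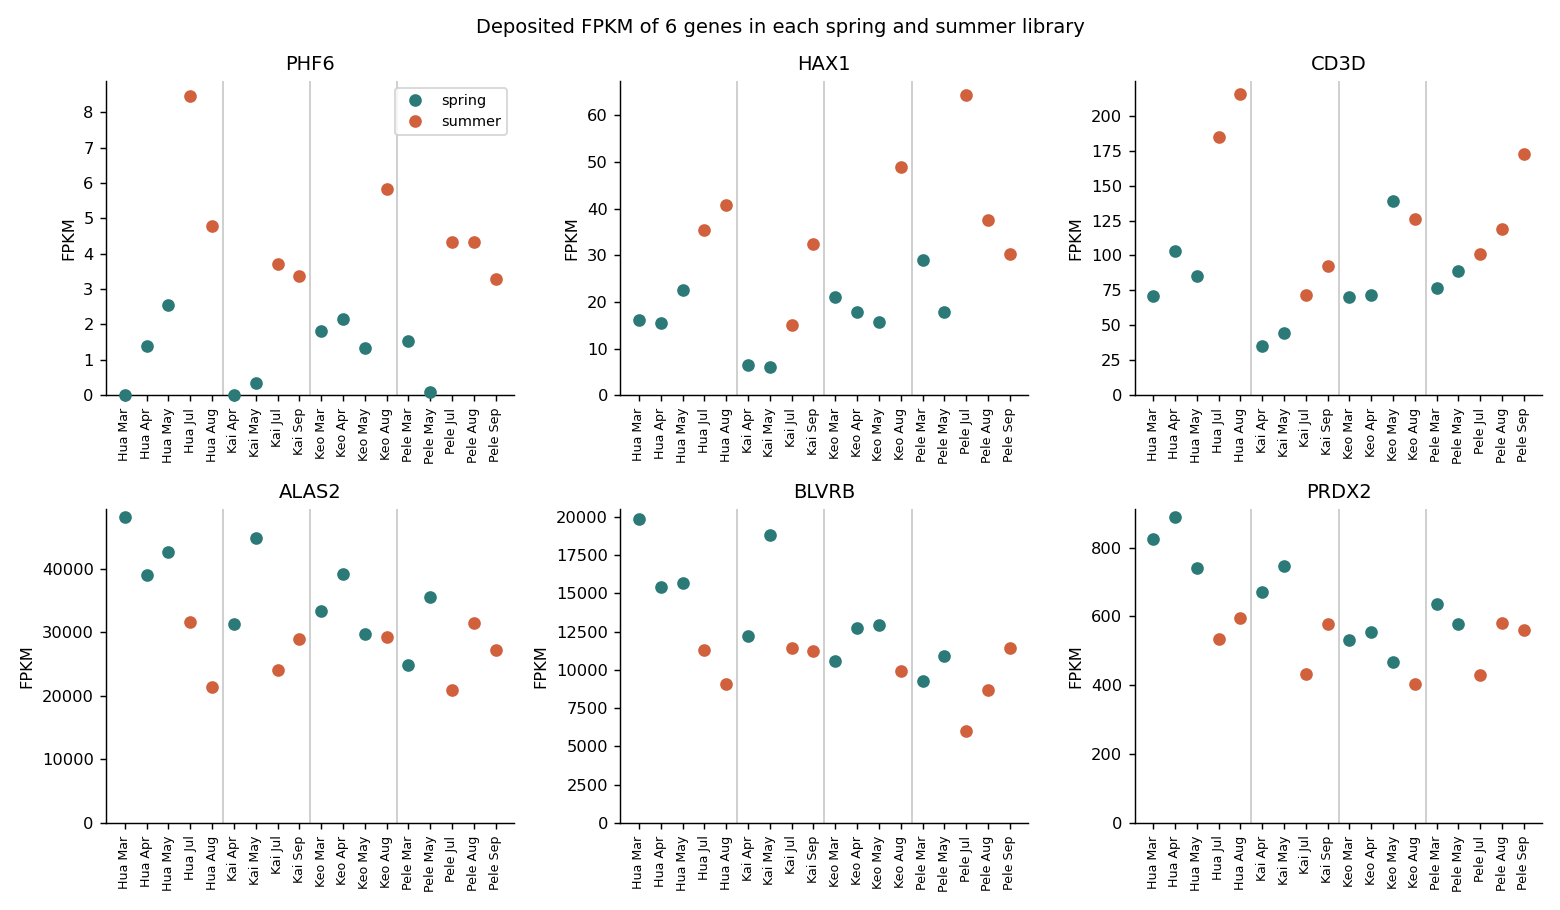
Deposited FPKM (y axis, linear and from 0) of 6 genes in each of the 18 libraries (x axis, by animal and month), spring in green and summer in orange, 1 point per library. PHF6 has its lowest summer value, 3.28, above its highest spring value, 2.56, while ALAS2, BLVRB and PRDX2 have each summer library below the spring median.

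Gene lists for blood cell types, defence, stress and metabolism were then set beside all genes by their median difference and their counts at an unadjusted p under 0.05. The interferon response list (44 of 63 genes measured) and the T cell list (33 of 37) had the highest medians, 0.62 for each as deposited, and 0.44 and 0.41 after scaling. The erythroid list (38 of 48) and the ribosomal protein list (70 genes) had the lowest medians after scaling, both at −0.36, and were at −0.19 and −0.15 as deposited. When the July and August libraries of Pele were left out, the deposited medians were −0.06 and −0.04, and the scaled medians −0.31 and −0.30. The medians over all genes were 0.21 as deposited and 0.03 after scaling in all 18 libraries. Without those libraries of Pele the medians over all genes were 0.27 and 0.04. No member of any of the lists passed after adjustment.

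**Figure D3:**
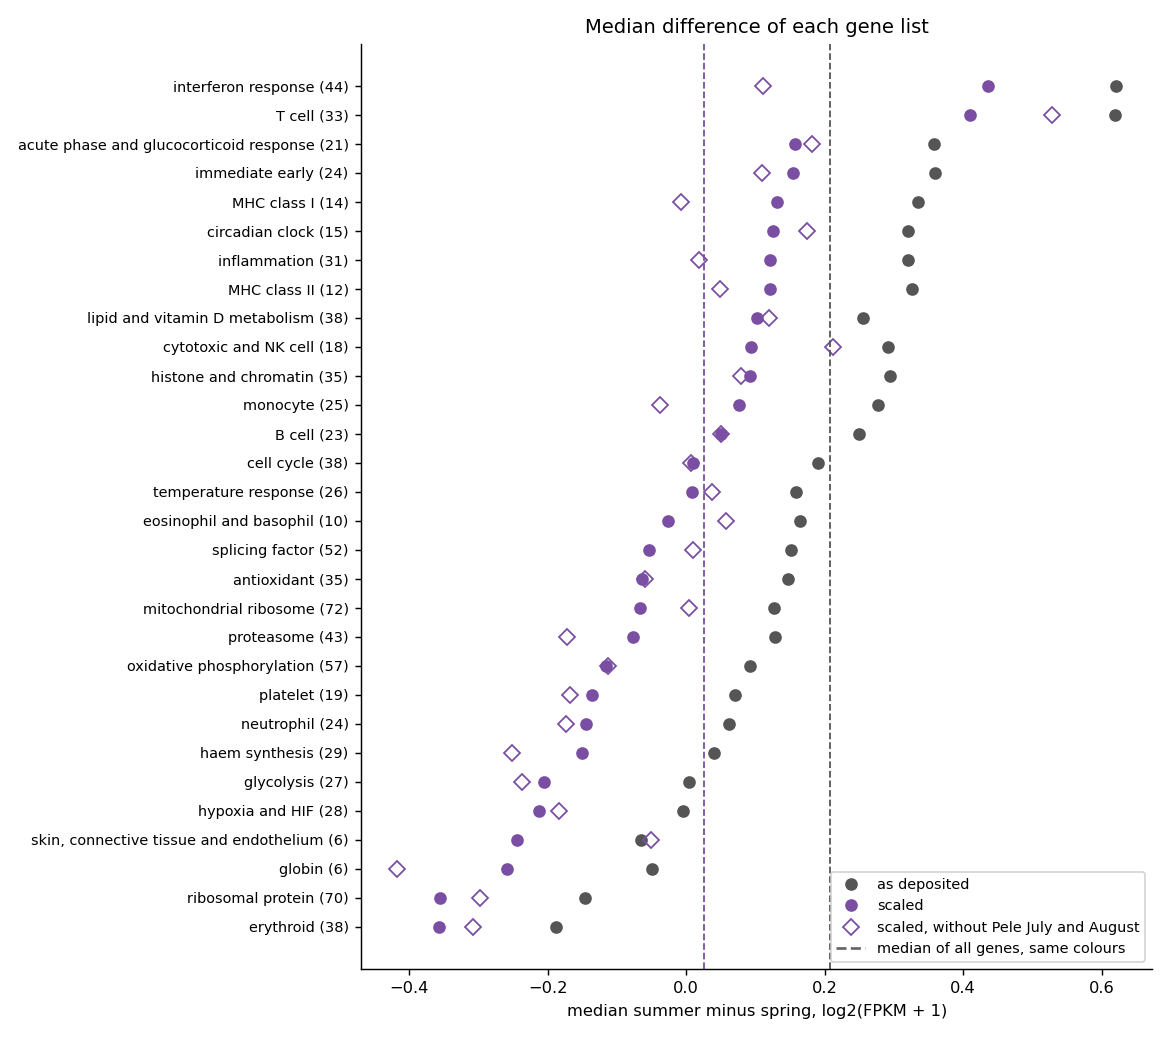
Median summer minus spring difference in log2(FPKM + 1) (x axis) of 30 gene lists (y axis, number of measured genes in parentheses), as deposited (grey), scaled (filled purple) and scaled without the July and August libraries of Pele (open diamonds). Dashed lines are the medians of all genes, 0.21 and 0.03. The interferon list moves from 0.44 to 0.11 without those libraries, and the T cell list from 0.41 to 0.53.

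Interferon genes were highest in 2 summer libraries of 1 animal. IFIT1, an antiviral RNA-binding protein, had 359 FPKM in Pele in July and 575 in August, against 10.6 to 102 in the other 6 summer libraries and 12.2 to 59.5 in spring. IRF7, the factor that amplifies interferon production, had 114 and 185, against 8.28 to 26.7 and 6.25 to 21.9. In September the same animal was at 56.8 and 21.6 FPKM for these genes, within the range of spring. Averaged over the list and set against each gene's mean over the 18 libraries, the scaled level was 1.94 in Pele in August and 1.19 in July, and between −0.60 and 0.16 in the other 16 libraries. The summed level of the list ran from 948 to 7935 FPKM in summer and from 966 to 2039 in spring.

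Of the 44 interferon genes, 14 (31.8%) were higher and 0 lower at an unadjusted p under 0.05 as deposited, and 3 (6.82%) were higher after scaling, against 10.0% and 4.12% of all genes. Without the July and August libraries of Pele these counts were 4 and 1, against 10.1% and 3.75% of all genes, and the median was 0.36 as deposited and 0.11 after scaling. By animal, the scaled median was −0.17 in Hua and 0.08 in Kai, and it was 0.34 in Keo and 1.25 in Pele. IFIT1 itself went from 0.89 (SE 0.53, adjusted p = 0.545) to 0.19 without both libraries.

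OAS1, which senses double-stranded RNA and activates RNase L, had the smallest p of the list and was less bound to those libraries. It ran from 10.5 to 208 FPKM in summer (median 32.3) and from 2.60 to 58.4 in spring (median 17.1). Keo in August (100 FPKM) lay above every spring library, together with Pele in July (147) and August (208). The difference was 1.41 (SE 0.35, p = 0.000664, adjusted p = 0.309), 1.21 after scaling, with all 4 animals higher in summer, and 1.07 without the July and August libraries of Pele. EPSTI1, an interferon-induced gene of stromal and immune cells, ran from 6.18 to 24.7 in summer and 3.18 to 18.1 in spring (1.02, adjusted p = 0.373), and from 1.02 it went to 0.83 without them. The related OAS2 went from 1.32 to 0.77. The MHC class I list (14 genes) had a scaled median of 0.13, and −0.01 without both libraries, and the MHC class II list (12 genes) had 0.12 and 0.05. As deposited 3 (21.4%) and 1 (8.33%) of their members were higher, against 10.0% of all genes. After scaling 1 of each was higher (7.14% and 8.33%), against 4.12% of all genes, and 1 class II gene was lower, against 5.10%. Without both libraries 1 of each was higher as deposited and 0 of each after scaling, against 10.1% and 3.75% of all genes. Among these genes NLRC5, the transactivator of MHC class I, lay at 6.57 to 42.8 FPKM in summer and 1.41 to 10.3 in spring (1.00, adjusted p = 0.346, and 0.77 without both libraries). CD74, the invariant chain of MHC class II, lay at 824 to 3082 and 339 to 1595 (0.80, adjusted p = 0.346, and 0.62 without both). The seasons overlapped for each of these genes.

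T cell genes had the other high list median in summer. CD3D, a chain of the T cell receptor complex, ran from 72.0 to 216 FPKM in summer (median 123) and from 35.1 to 139 in spring (median 74.3). Hua in July and August (185 and 216) and Pele in September (172) lay above every spring library, and Kai in July was the single summer library below the spring median. The difference was 0.87 (SE 0.19, p = 0.000145, adjusted p = 0.198), 0.66 after scaling (with 3 of 4 animals higher) and 0.98 without the July and August libraries of Pele. In the winter libraries CD3D ran from 31.1 to 229 with a median of 142.

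CD3G, its partner chain, lay at 58.0 to 387 FPKM in summer and 44.5 to 158 in spring (0.81, adjusted p = 0.407). The difference was 1.87 in Hua and 0.65 in Kai among the males, 0.94 in Keo, and −0.21 in Pele. CCR7, the receptor that guides naive and central memory T cells to lymph nodes, had a summer median (35.1 FPKM) below its spring median (40.3), while the within-animal difference was 1.10 (SE 0.33, adjusted p = 0.346). The April and May libraries of Kai, at 4.49 and 4.04 FPKM, were the lowest of all, and the difference in Kai was 2.54 against 0.19 in Pele. SH2D1A, an adaptor of lymphocyte signalling, and CD40LG, the helper signal to B cells, had the highest differences of the list (1.206 and 1.197), and CTLA4, an inhibitory receptor, was the single member with a negative difference as deposited (−0.30).

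Of the 33 T cell genes, 11 (33.3%) were higher and 0 lower at an unadjusted p under 0.05, against 10.0% and 0.739% of all genes. After scaling 4 (12.1%) were higher and 0 lower, against 4.12% and 5.10%. Without the July and August libraries of Pele 15 were higher as deposited and 6 after scaling, against 10.1% and 3.75% of all genes. Without the 3 spring libraries with over 1000 genes at 0, 4 were higher after scaling, against 306 of all 9610 genes. The scaled median was then 0.26, against −0.01 for all genes. By animal the scaled median was 0.77 in Hua and 0.52 in Kai, the males, and 0.08 in Keo and 0.02 in Pele, the females. The 3 spring libraries with over 1000 genes at 0 were all from the males, and a difference by sex was not tested. The summed level ran from 1081 to 2325 FPKM in summer and 595 to 1865 in spring. These other leukocyte lists lay closer to all genes: scaled medians were 0.05 for B cell genes, 0.09 for cytotoxic and NK cell genes, 0.08 for monocyte genes and −0.14 for neutrophil genes, and none of the members of these 4 lists was higher at an unadjusted p under 0.05 after scaling. As deposited the medians of these lists were 0.25, 0.29, 0.28 and 0.06, in the same order, against 0.21 for all genes. Of 25 monocyte genes, 3 (12.0%) were higher and 0 lower as deposited, against 10.0% and 0.739% of all genes. The scaled monocyte median was −0.04, with 4 of 25 members lower against 4.42% of all genes, without the July and August libraries of Pele. Of 10 eosinophil and basophil genes, 1 (10.0%) was higher on both scales, against 10.0% of all genes as deposited and 4.12% after scaling. The scaled median of these genes was −0.03. Of 24 neutrophil genes, 3 (12.5%) were higher and 0 lower as deposited, so the direction of the count changed with the scaling. After scaling 6 of 24 (25.0%) were lower, against 5.10% of all genes, among them S100A12, a calcium-binding alarmin (−0.54, or −0.33 as deposited). Whether the T cell values reflect more T cells was not tested.

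**Figure D4:**
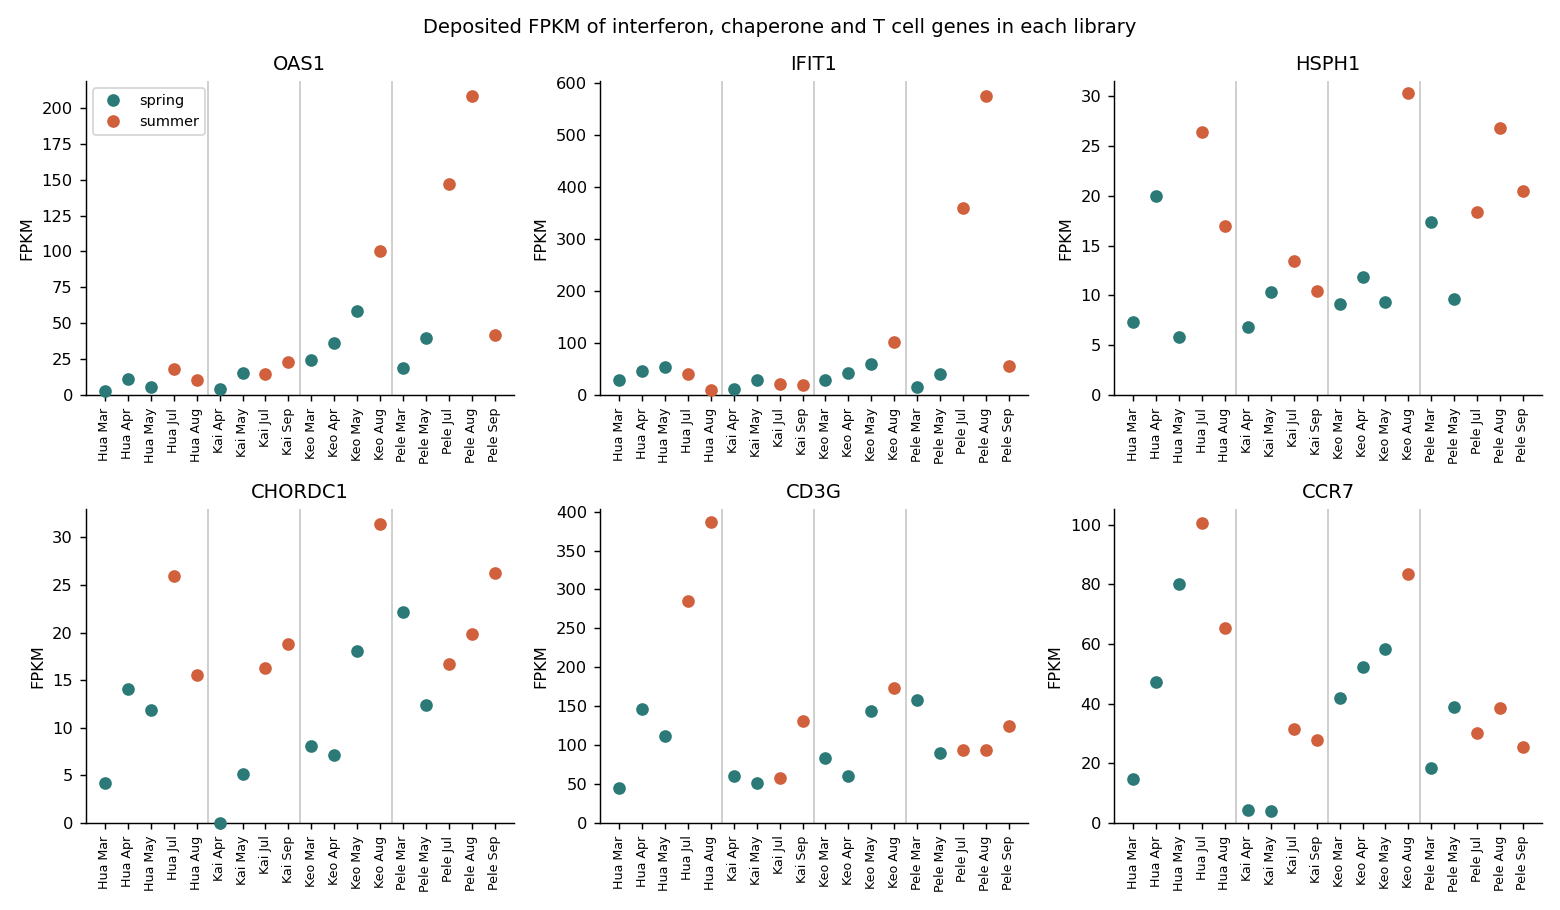
Deposited FPKM (y axis, linear and from 0) of interferon genes (OAS1, IFIT1), chaperone genes (HSPH1, CHORDC1) and T cell genes (CD3G, CCR7) in each of the 18 libraries (x axis, by animal and month), spring in green and summer in orange. IFIT1 stands at 359 and 575 in Pele in July and August and at no more than 102 elsewhere.

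Several genes of haem synthesis and red cells had lower values in summer, none past the adjusted threshold. ALAS2, the rate-limiting enzyme of haem synthesis in red cells, ran from 20889 to 31596 FPKM in summer (median 28097) and from 24888 to 48128 in spring (median 37283). All 8 summer libraries lay below the spring median and 3 lay below every spring library. The difference was −0.42 (SE 0.15, p = 0.00936, adjusted p = 0.386), −0.63 after scaling and −0.45 without the July and August libraries of Pele, and it was negative in each animal (between −0.73 in Hua and −0.18 in Pele). In winter ALAS2 had a median of 33890.5 FPKM.

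BLVRB, a biliverdin reductase abundant in red cells, ran from 6024 to 11454 FPKM in summer and from 9278 to 19842 in spring (−0.44, SE 0.15, adjusted p = 0.373). PRDX2, the peroxiredoxin of red cells, ran from 403 to 595 and from 468 to 889 (−0.40, SE 0.12, adjusted p = 0.346). All summer libraries lay below the spring median of both genes, and 3 of 8 lay below every spring library for each. GLRX5, which assembles iron-sulphur clusters, ran from 147 to 554 and from 308 to 598 (−0.39, adjusted p = 0.439).

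After scaling, UROD, an enzyme of the haem pathway, was at −0.53 (unadjusted p = 0.00309) and FTL, the light chain of ferritin, at −0.60 (unadjusted p = 0.0211). As deposited they were at −0.32 and −0.39. Of 29 haem synthesis and iron genes, 4 (13.8%) were lower and 2 higher at an unadjusted p under 0.05, and 8 (27.6%) lower and 1 higher after scaling. The shares over all genes were 0.739% lower and 10.0% higher as deposited, and 5.10% and 4.12% after scaling. Leaving out the July and August libraries of Pele, 10 of the 29 were lower and 1 higher after scaling, against 4.42% and 3.75% of all genes. The scaled median was then −0.25, against 0.04 for all genes. In all 18 libraries the median was 0.04 as deposited and −0.15 after scaling, against 0.21 and 0.03 for all genes. The sign of this median changed with the scaling. The higher ones were transporters of low level. SLC11A2, which imports ferrous iron, lay at 1.21 to 9.23 FPKM in summer and 0 to 3.17 in spring (1.07, adjusted p = 0.367), and FLVCR1, a haem exporter, was at 0.73. Its relative FLVCR2 was at −0.78.

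Of 38 erythroid genes, 3 (7.89%) were lower and 2 higher as deposited, and 11 (28.9%) lower and 2 (5.26%) higher after scaling, beside the same shares over all genes (0.739% and 10.0%, then 5.10% and 4.12%). Without the July and August libraries of Pele, 10 were lower and 0 higher after scaling, against 4.42% and 3.75% of all genes. The scaled median was then −0.31, against 0.04 for all genes. The scaled median was negative in each animal, from −0.16 in Kai to −0.51 in Keo. Of the defining red cell markers, KLF1, the erythroid transcription factor, was at −0.57, while the anion exchanger SLC4A1 was at 0.27. The higher ones at an unadjusted p under 0.05 were LDB1, a cofactor of erythroid enhancers (1.10), and XPO7, a nuclear exporter (0.69). The summed level of the erythroid list ran from 23650 to 37389 FPKM in summer and 29495 to 54320 in spring.

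The globins did not follow one direction. HBB had a median of 179261 FPKM in summer and 164572 in spring, with a difference of 0.00 as deposited and −0.20 after scaling. HBA, the alpha globin, was at 0.21 as deposited and 0.00 after scaling. The embryonic HBE1 and the theta-like HBQ1 were at −0.22 and −0.25 as deposited, and at −0.43 and −0.46 after scaling (unadjusted p = 0.0381 and 0.0428). HBA and HBB are targets of the depletion, so their levels also reflect how completely each library was depleted, which was not tested.

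**Figure D5:**
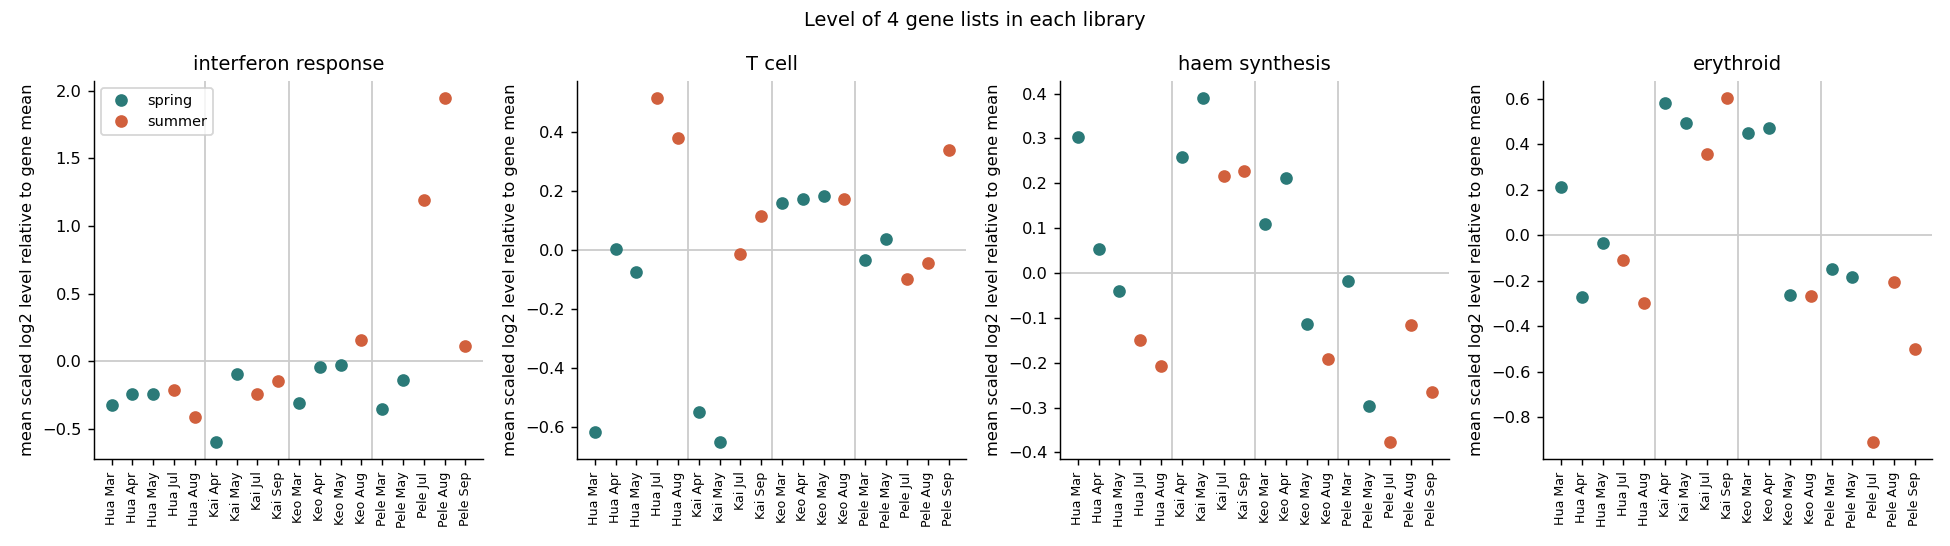
Mean scaled log2(FPKM + 1) of 4 gene lists in each library (x axis), relative to each gene's mean over the 18 libraries (y axis, with a scale of its own in each panel), spring in green and summer in orange. The interferon list stands at 1.19 and 1.94 in Pele in July and August and below 0.17 elsewhere, and the T cell list is highest in Hua in July, at 0.51.

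Of the temperature response list (26 of 38 genes measured), the higher genes were chaperones and a cochaperone. HSPH1, a nucleotide exchange factor of heat shock proteins, ran from 10.4 to 30.3 FPKM in summer (median 19.4) and from 5.86 to 20.0 in spring (median 9.49). CHORDC1, a heat-inducible partner of HSP90 chaperones, ran from 15.5 to 31.4 (median 19.3) and from 0 to 22.2 (median 9.97). All summer libraries lay above the spring median of both genes, with overlap between the seasons. The differences were 0.89 (SE 0.26, adjusted p = 0.346) and 1.37 (SE 0.40, adjusted p = 0.346), or 0.69 and 1.23 after scaling, with each animal higher in summer. Without the 3 spring libraries with over 1000 genes at 0 they were 0.65 and 0.88.

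HSPA13, a microsomal relative of the major heat shock proteins, ran from 6.73 to 12.4 FPKM in summer and from 1.39 to 7.61 in spring (0.68, adjusted p = 0.431). HSPA8, the constitutive chaperone, ran from 333 to 930 and from 368 to 802 (0.36 as deposited and 0.15 after scaling, adjusted p = 0.452 as deposited). DNAJB1, a heat-inducible cochaperone, was at −0.23 as deposited and −0.44 after scaling (unadjusted p = 0.0162). In all, 4 of 26 genes (15.4%) were higher and 0 lower at an unadjusted p under 0.05, and 3 (11.5%) higher and 1 lower after scaling, against 10.0% and 4.12% of all genes higher. These counts were the same without the July and August libraries of Pele. The list's medians, 0.16 and 0.01, were close to those of all genes. The scaled count of higher genes fell without the spring libraries richest in genes at 0 (Hua March, Hua May and Kai April). It was then 1, with 1 lower, against 306 higher and 443 lower of all genes. The scaled median of the list was then −0.05, against −0.01 for all genes.

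Clock genes gave no difference past the threshold. Of 26 listed, 15 were measured, and 0 had an unadjusted p under 0.05 as deposited. Over all genes 10.0% were higher and 0.739% lower. ARNTL, the activator of the clock loop, was at 0.43, its repressors CRY1 and CRY2 at 0.50 and 0.52, and the nuclear receptors NR1D1 and NR1D2 at 0.05 and 0.19, with adjusted p from 0.502 to 0.976. After scaling, 2 genes (13.3%) were lower and 0 higher at an unadjusted p under 0.05, against 5.10% and 4.12% of all genes. NFIL3, a repressor of clock output that also shapes lymphoid cells, lay at 18.9 to 58.7 FPKM in summer and 28.8 to 72.3 in spring, with −0.31 as deposited and −0.52 after scaling (unadjusted p = 0.144 and 0.00106, adjusted p = 0.587 and 0.325). BHLHE40, a repressor of the clock, was at −0.28 and −0.48. Only 1 clock gene was lower after scaling without the July and August libraries of Pele, against 4.42% of all genes.

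The count of ribosomal protein genes depended on the scaling. As deposited, 1 of 70 was higher, RPS26 of the small subunit (496 to 3726 FPKM in summer and 335 to 3306 in spring, 1.01), and 1 lower, RPS2 (−0.28). Over all genes 10.0% were higher and 0.739% lower as deposited. After scaling, 33 (47.1%) were lower and 0 higher, against 5.10% and 4.12% of all genes, and 4 of 70 had a positive difference. Without the July and August libraries of Pele 19 were lower after scaling, against 4.42% of all genes. By animal the scaled median was −0.02 in Hua, and between −0.40 and −0.51 in the other animals. The share of summed FPKM held by these genes was 31.3% ± 4.61 in summer (SD, n = 8) and 31.8% ± 4.98 in spring (SD, n = 10).

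Of 35 antioxidant genes, 2 were lower as deposited and 8 (22.9%) after scaling, and of 27 genes of glycolysis and the pentose phosphate pathway, 1 and 5 (18.5%), with 0 higher in both. The shares of all genes were 0.739% and 5.10% lower, and 10.0% and 4.12% higher. The scaled counts of lower genes were 6 and 3 without the July and August libraries of Pele, against 4.42% of all genes. TALDO1, the transaldolase of that pathway, lay at 746 to 1683 FPKM in summer and 914 to 1759 in spring (−0.36 as deposited and −0.57 after scaling). Of 24 immediate early genes, 6 (25.0%) were higher as deposited and 2 (8.33%) after scaling, against 10.0% and 4.12% of all genes. Both counts were 2 without the July and August libraries of Pele, against 10.1% and 3.75% of all genes. Among them KLF10, a factor induced by TGF-beta, lay at 4.80 to 19.1 FPKM in summer and 1.53 to 12.3 in spring (1.04, adjusted p = 0.346, and 0.86 after scaling). VDR, the vitamin D receptor, lay at 4.05 to 12.6 and 0 to 11.9 (1.10, adjusted p = 0.389). PTGDR2, a prostaglandin receptor of eosinophils and basophils, lay at 1.40 to 12.0 and 0.54 to 3.52 (1.05, adjusted p = 0.346). The seasons overlapped for all of these genes.

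Whether the seasonal difference itself differed between the animals was tested as an interaction. By limma's F test 0 of 9610 genes passed (smallest adjusted p = 0.326), and 249 (2.59%) had an unadjusted p under 0.05. The smallest p belonged to the histone gene HIST3H2A, with differences of 3.31 in Hua and 2.59 in Kai, against 0.79 in Keo and −1.59 in Pele. UBE2D1, a ubiquitin-conjugating enzyme, had 4.36, 1.26, −0.73 and 0.40 for the animals in that order, and the lymphotoxin gene LTA had 2.57, 2.60, −1.15 and −0.50. GPR82, an orphan receptor, and GAPT, a B cell adaptor, followed, both at an adjusted p of 0.999. In each of these genes the difference in Hua was above 2, and Hua had 2 of the 3 spring libraries with over 1000 genes at 0, whose part in these values was not tested.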

How the data were processed

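Blood RNA of 4 dolphins was measured in 31 libraries. Per the labels and the study's methods, the authors trimmed reads with Trimmomatic and computed the deposited FPKM with RSEM 1.2.18 after Bowtie2 2.2.4 alignment to the Ensembl turTru1 genome, and a second FPKM table with Cufflinks 2.2.0, used here as an alternative. In the values the smallest mean was 1.00 FPKM and the smallest share of libraries above 0 was 0.516. Tables of the authors' own comparisons (fold changes with posterior probabilities) and of de novo transcripts were not used.

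limma 3.58.1 in R 4.3.3 was fitted on log2(FPKM + 1) with animal and season, a mean-variance trend and Benjamini-Hochberg adjustment over 9610 genes, two-sided. Exact permutations exchanged seasons within animals (2400 rearrangements). The animal named in the label pairs the libraries, and summer and spring deviations correlated within an animal (r = 0.142 to 0.236) more than with any other (at most 0.0173). Median-ratio size factors used the genes above 0 in every library. Only the main fit with animal and season was tested on simulated data, not the interaction test, the alternative fits or the permutations.

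Genes named are the 10 with the smallest p each way (fewer than 10 passed), up to 3 highest and lowest of each list, members of the clock, temperature, interferon, globin and haem lists, 5 of the interaction test, and cell markers. RPS2 was named after its value was seen. Members and lists were chosen with earlier results of these data known. Alternatives were scaling, pseudocount, filters, the block, the Cufflinks table, all libraries, and leaving out libraries or animals. Leaving out libraries with over 1000 genes at 0, and list medians without the July and August libraries of Pele after scaling, were chosen after seeing the data.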

Additional observations from a re-analysis of the deposited data

Results flagged for a closer look

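In 60 groups of libraries, 4 held 1 library far from the others, and chance gives about 1 in 20. HAVCR2 in summer was at 2.43 FPKM in Pele in September, with the other 7 libraries at or below 0.74. GMPR stood apart in the same library, at 61.0 FPKM, and in spring in Pele in May, at 93.7. EPSTI1 in spring was highest in Hua in April, at 18.1 FPKM.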

How the results depend on the processing

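The 28 genes tested under 31 to 34 settings each kept their direction in all of them. These genes were picked with these same data known, several for their small p, and the settings share most of their libraries. A kept direction was therefore favoured in advance. The number of genes past the adjusted threshold stayed at 0 with a pseudocount of 0.1, with either filter on low values, with all 31 libraries, in the Cufflinks table and without Hua, Keo or Pele. It was 1 without Kai (a gene without a symbol, ENSTTRG00000013684). Leaving out single libraries gave 0 to 4: 1 without Hua in May (PHF6), 1 without Hua in August (BCL2L11) and 4 without Pele in September (C15orf61, HAX1, PHF6 and SUV39H1). With no block for the animal, 0 genes passed, and the globin share differed by −1.16 points. The globin share difference turned to 5.75 points without Keo (exact permutation p = 0.297). Without Keo the genes higher at an unadjusted p under 0.05 numbered 476. FPKM carry no read counts, so for a gene listed at 0 an absent transcript cannot be told from one that was missed.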

Other observations

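The medians of the remaining gene lists are given as deposited and then after scaling, where all genes had 0.21 and 0.03. Platelet genes (19 measured) were at 0.07 and −0.14, inflammation genes (31) at 0.32 and 0.12, acute phase and glucocorticoid response genes (21) at 0.36 and 0.16, and hypoxia genes (28) at −0.01 and −0.21. Cell cycle genes (38) were at 0.19 and 0.01, lipid and vitamin D genes (38) at 0.26 and 0.10, and histone and chromatin genes (35) at 0.29 and 0.09. Splicing factors (52) were at 0.15 and −0.05, mitochondrial ribosome genes (72) at 0.13 and −0.07, proteasome genes (43) at 0.13 and −0.08, and oxidative phosphorylation genes (57) at 0.09 and −0.12. Antioxidant genes (35) were at 0.15 and −0.06, glycolysis genes (27) at 0.00 and −0.21, immediate early genes (24) at 0.36 and 0.15, eosinophil and basophil genes (10) at 0.16 and −0.03, and the 6 genes of skin, connective tissue and endothelium at −0.06 and −0.24.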
